A study of Mus musculus with 24 samples.

Results

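The brains of tRNA-Phe-3-1-/- mice were compared with those of wild-type (WT) mice, 3 brains against 3, which are 6 of the 24 samples of the series. The members were chosen by the genotype and tissue in the sample titles. In the series, RNA of brain and liver was sequenced from WT mice and from 3 lines of mice that are each homozygous for a deletion of 1 tRNA-Phe gene (1-1, 2-1 or 3-1). Each of the 4 genotypes has 3 mice per tissue, lettered A to C. The 3 tRNA-Phe-3-1-/- and 3 WT brains are described throughout, and the 3 tRNA-Phe-1-1-/- and 3 tRNA-Phe-2-1-/- brains serve as further reference, so that 12 brains entered each fit. All mice were male, on a C57BL/6N background and age- and littermate-matched, and they came from different litters. The mice were 10 weeks old. The knockout alleles were deletions made with Cas9 and a guide RNA in embryos, separated by backcrossing and then bred to homozygosity. The labels describe the material as small pieces of tissue, and no brain region is named.

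A transfer RNA (tRNA) carries an amino acid to the ribosome and reads the matching codon with its anticodon. Several genes encode each tRNA, and tRNA genes that share an anticodon but differ elsewhere in the sequence are called isodecoders. In the brain, tRNA supply is of interest because the mutation of a single neuronal tRNA gene, together with the loss of a factor that rescues stalled ribosomes, causes neurodegeneration in mice. The question put by the comparison is whether the loss of an isodecoder that is encoded by a single gene alters the messenger RNA of the brain while the other tRNA-Phe genes remain.

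The deleted gene is shown first, because its sequence defines the knockout. The guide RNA of the study matched 7 sites of the mouse genome exactly, and these were the 7 tRNA-Phe genes, so that the same guide could cut each of them. The guide covers tRNA positions 24 to 43, counted from 1 at the 5′ end of the mature tRNA. Its sequence is given with the anticodon in capitals.

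Guide: gcgttagactGAAgatctaa

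The 5 genes of the tRNA-Phe-1 group have the same 73 bases, shown here for tRNA-Phe-1-1 with the anticodon in capitals. In the 2 other sequences the capitals mark the bases that differ from it.

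tRNA-Phe-1-1: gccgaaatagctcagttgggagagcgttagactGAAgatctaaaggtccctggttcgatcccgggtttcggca

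tRNA-Phe-2-1: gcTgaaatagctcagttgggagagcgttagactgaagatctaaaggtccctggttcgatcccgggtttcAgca

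tRNA-Phe-3-1: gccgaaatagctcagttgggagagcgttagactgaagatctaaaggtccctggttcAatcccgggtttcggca

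tRNA-Phe-3-1 differs from tRNA-Phe-1-1 by 1 substitution, G57A. tRNA-Phe-2-1 differs from tRNA-Phe-1-1 by C3T and G70A, which lie on the opposite strands of the acceptor stem. The anticodon is the same in all 3. In GRCm39 the tRNA-Phe-3-1 gene lies on the minus strand of chromosome 13, from base 22067055 to 22067127, and tRNA-Phe-1-1 on the minus strand of chromosome 5, from 125483119 to 125483191. The tRNA-Phe-3-1 gene lies within a cluster of histone genes, with Zfp184 as the nearest gene on its far side. No tRNA gene is among the genes of the deposited table, so the loss of tRNA-Phe-3-1 itself was not checked here.

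Values are normalised counts, that is estimated reads per gene divided by a size factor of each sample. Sequencing depth was 31500167 to 40239308 reads in the WT brains and 32343311 to 39993153 reads in the tRNA-Phe-3-1-/- brains. Defining neuronal and glial markers were present in every brain, with all 10 pan-neuronal, 13 astrocyte and 16 oligodendrocyte markers above 0 in each of the 6 samples.

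Markers of brain regions differed between the libraries, and their values are given before the comparisons. Among the tRNA-Phe-3-1-/- and WT brains, tRNA-Phe-3-1-/- replicate C stood apart. Its summed normalised count of the 15 hypothalamus markers was 10915, against 1519 and 760.1 in replicates A and B and 473.5 to 782.2 in the WT brains. The 12 thalamus markers summed to 38322 in replicate C, against 9826 to 10883 in the other tRNA-Phe-3-1-/- brains and 10203 to 19383 in the WT brains. In the same library the 15 cerebral cortex markers summed to 32477, while replicates A and B had 62201 and 69586 and the WT brains had 59934 to 82823. tRNA-Phe-3-1-/- replicate B carried the highest sum of the 12 olfactory bulb markers, 18849 against 9322 and 11143 in replicates A and C and 5182 to 6812 in the WT brains. WT replicate C had the lowest sum of the 15 striatum markers, 17486, against 35177 and 47321 in the other WT brains and 45404 to 63401 in the knockout brains. Single libraries of the other lines also had high sums. The thalamus sum was 45382 in tRNA-Phe-2-1-/- replicate C, against 9047 to 11447 in the other brains of those lines. The olfactory bulb sum was 15614 in tRNA-Phe-1-1-/- replicate A, against 6234.5 to 10536 in the others. In these pieces of tissue, fewer cells of a type and less RNA per cell cannot be told apart. Several of the gene lists and genes below are therefore given with and without 1 of these libraries.

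**Figure D1:**
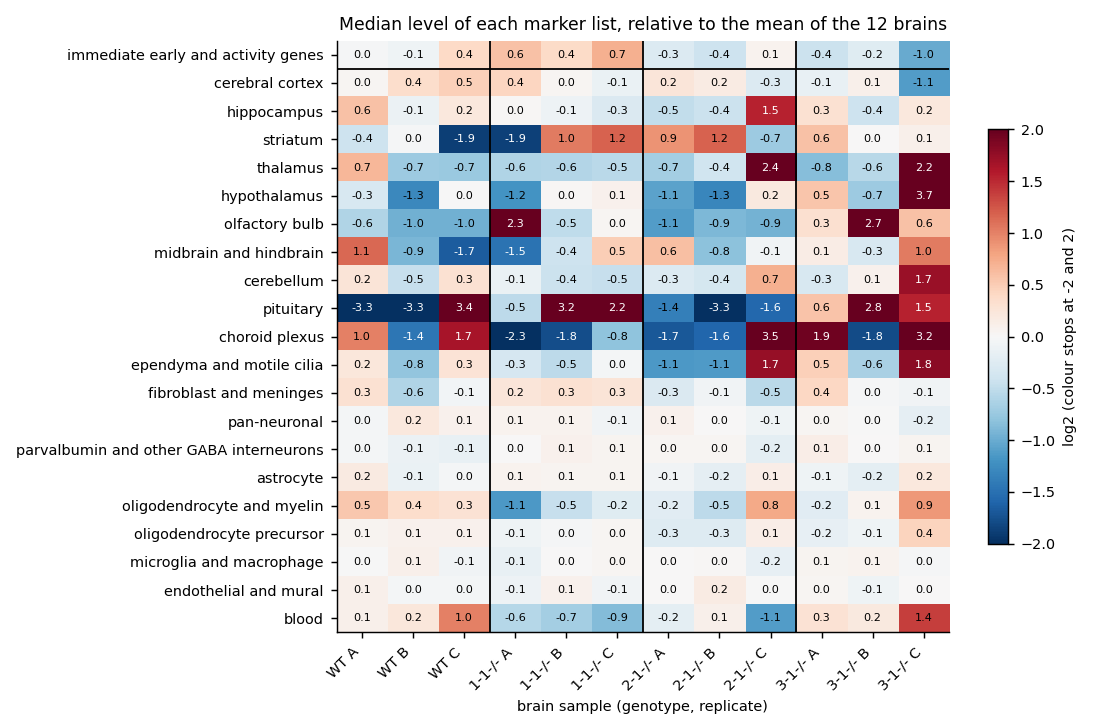
Median log2 level of each list of activity genes (top row) and of regional and cell type markers in each of the 12 brains, relative to the mean over the 12. Columns are samples grouped by genotype. tRNA-Phe-3-1-/- replicate C reads 3.7 for hypothalamus and -1.1 for cerebral cortex, and replicate B reads 2.7 for olfactory bulb.

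Across the whole transcriptome no gene passed the test between tRNA-Phe-3-1-/- and WT brains. limma, a linear model fitted to log2(normalised count + 1) of all 12 brains, called 0 of 19228 genes (0%) at an adjusted p under 0.05. The lowest adjusted p was 0.120. At an unadjusted p under 0.05 there were 1034 genes higher (5.38%) and 1339 genes lower (6.96%) in the knockout. The 3 knockout brains lay above all 3 WT brains for 7.93% of the genes and below them for 8.48%, and the median difference of all genes was 0.00 on the log2 scale. Count models run on the reads recovered from the normalised counts disagreed with each other. edgeR called 0 genes, with 2375 at an unadjusted p under 0.05, and DESeq2, the tool of the study, called 372 genes, of which 146 were higher (0.776% of those it tested) and 226 lower (1.2%). Leaving out tRNA-Phe-3-1-/- replicate C reduced the DESeq2 count to 137, and 108 of these were among the 372. Leaving out replicate B raised the DESeq2 count to 949 and the limma count to 75, with 24 higher and 51 lower. Among the 75 were Luzp1, Rorb, Fstl5 and Smoc1, each with an adjusted p of 0.0468 in that limma fit. For each of them the adjusted p in limma was 0.236 without replicate A and 0.253 without replicate C. Genes below are described by their values, and none of them was called by limma on all samples. Of the 372 genes called by DESeq2, 356 did not overlap between the 3 knockout and 3 WT brains.

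**Figure D2:**
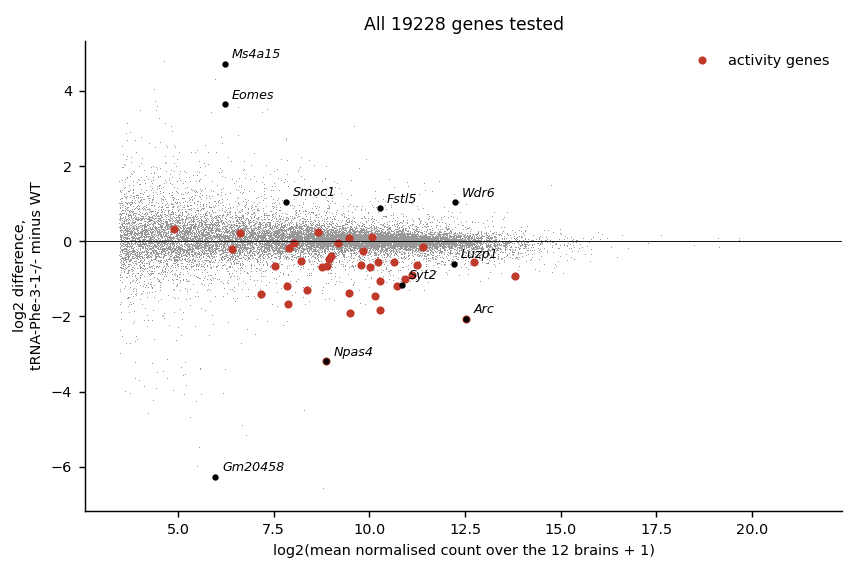
Log2 difference between tRNA-Phe-3-1-/- and WT brains (vertical axis) against log2 of the mean normalised count over 12 brains plus 1 (horizontal axis), with 1 point for each of the 19228 genes tested. The 38 activity genes are red, and most of them lie below 0, with Npas4 the farthest at -3.19.

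The 6 protein-coding genes with the lowest p among those named on the lower side were Syt2, Luzp1, Npas4, Rorb, Nr3c1 and Pou3f3. Syt2 (ENSMUSG00000026452.15, GRCm38.p6 chromosome 1, 134646534 to 134753149) encodes synaptotagmin-2, a calcium sensor of fast transmitter release. Its normalised counts were 3481, 2217 and 2666 in the WT brains and 1081, 1214 and 1415 in the knockout brains. Every knockout brain lay below every WT brain, and the log2 difference was -1.16 ± 0.18 (SE), with an adjusted p of 0.120 in limma. Syt2 was also low in the tRNA-Phe-1-1-/- brains, at 999.1, 1502 and 1324, which overlapped the tRNA-Phe-3-1-/- brains.

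Luzp1, which encodes a leucine zipper protein of the actin cytoskeleton and the cilium (chromosome 4, 136462609 to 136554725), was measured with little spread. The WT brains held 5606, 5322 and 5934 normalised counts and the knockout brains 3579, 3901 and 3637, a log2 difference of -0.60 ± 0.09. No sample of any other genotype was as low, since the lowest of the other 9 brains held 4226. Rorb, a nuclear receptor that marks layer 4 of the cortex (chromosome 19, 18930609 to 19111196), read 3714, 3799 and 3656 in WT and 2414, 2677 and 2458 in knockout brains. As with Syt2, the tRNA-Phe-1-1-/- brains were also low for Rorb, at 1890 to 2486, whereas the tRNA-Phe-2-1-/- brains held 3718 to 3952.

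2 further genes in this group encode transcription factors. Nr3c1, the glucocorticoid receptor, had 6922, 7485 and 7870 normalised counts in WT and 5053, 5510 and 5616 in knockout brains. The tRNA-Phe-1-1-/- brains, at 5327 to 5611, lay within the tRNA-Phe-3-1-/- range for Nr3c1. Pou3f3, a POU-domain factor of upper-layer cortical neurons, had 3439, 3222 and 3463 in WT against 2203, 2737 and 2080, and these 3 values were below those of all 9 other brains. The log2 differences were -0.46 ± 0.08 for Nr3c1 and -0.54 ± 0.09 for Pou3f3, with adjusted p-values of 0.130 and 0.139 in limma. Without tRNA-Phe-3-1-/- replicate C the differences of Nr3c1 and Pou3f3 were -0.49 and -0.46.

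The 6 protein-coding genes with the lowest p on the higher side were Fstl5, Smoc1, Syt10, Angpt1, Fhl1 and Ttc39c. Fstl5, a secreted follistatin-like protein of neurons (chromosome 3, 76074275 to 76710010), had 1094, 905.7 and 918.8 normalised counts in WT and 1631, 1781 and 1943 in knockout brains. The 3 knockout values exceeded those of all 9 other brains, whose highest was 1380, and the log2 difference from WT was 0.88 ± 0.13. Smoc1, a secreted calcium-binding matrix protein (chromosome 12, 81026808 to 81186414), had 200.2, 131.1 and 184.0 in WT and 380.4, 316.8 and 355.5 in knockout brains. It was 2.04 times the WT mean and again above all 9 other brains.

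Syt10, a synaptotagmin of dense-core vesicle release, had 244.6, 169.1 and 268.6 normalised counts in WT and 496.8, 648.4 and 447.3 in knockout brains. Angpt1, the ligand of the endothelial receptor Tek, averaged 188.3 ± 23.6 (SD, n = 3) in WT and 338.9 ± 32.9 in knockout brains. The LIM-domain gene Fhl1 averaged 1101 ± 69.4 and 1734 ± 243.4, and Ttc39c averaged 749.3 ± 54.3 and 1161 ± 13.5. All 4 genes lay above the range of the other 9 brains. Their log2 differences from WT were 1.23 ± 0.21 for Syt10, 0.85 ± 0.14 for Angpt1, 0.65 ± 0.11 for Fhl1 and 0.63 ± 0.11 for Ttc39c, with adjusted p-values of 0.134 to 0.139 in limma.

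**Figure D3:**
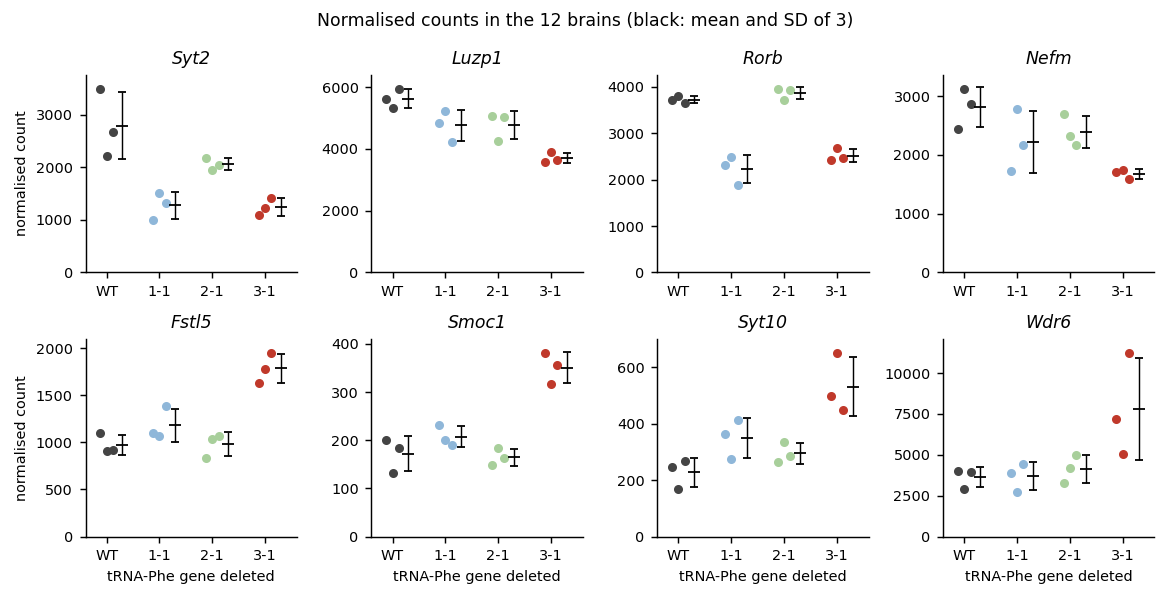
Normalised counts (vertical axes, starting at 0) of 8 genes in the 12 brains by genotype, with 1 coloured point per brain and the mean and SD of 3 in black. Luzp1, Fstl5, Smoc1, Syt10 and Wdr6 set the tRNA-Phe-3-1-/- brains apart from the other 9, whereas Syt2 and Rorb are as low in tRNA-Phe-1-1-/- brains.

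Genes that do not encode proteins were named by the same rule. Gm42941, a long noncoding RNA, had 157.4, 140.6 and 176.1 normalised counts in WT and 53.9, 86.4 and 54.3 in knockout brains. It had the lowest p of all genes, with a log2 difference of -1.30 ± 0.19. Gm15721, which lies 78 bases from Mtus2 on the opposite strand (GRCm39 chromosome 5, 147886692 to 147893976), had 83.0, 85.6 and 81.3 in WT and 34.5, 32.3 and 16.8 in knockout brains. On the higher side, Gm43502, a transcript of undetermined type inside Dpp6, averaged 154.6 ± 21.7 in WT and 332.0 ± 70.1 in knockout brains, and the pseudogene Gm8173 averaged 65.1 ± 11.2 and 133.0 ± 3.2. Reads of an overlapping gene on the same strand, or of the parent of a pseudogene, could be divided differently by another counting method.

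Genes that neurons switch on when they fire were lower in the tRNA-Phe-3-1-/- brains. These immediate early and activity-regulated genes are transcribed within minutes of synaptic input, and their levels are often read as a sign of recent activity. The libraries do not measure activity itself. Of 38 such genes, 33 were lower in the knockout than in WT and 5 were higher, with a median log2 difference of -0.64 against 0.00 for all genes. The knockout and WT brains did not overlap for 17 of the 38, all lower, where 8.48% of all genes were lower without overlap. At an unadjusted p under 0.05, 23 of the 38 were lower and 0 were higher in limma (6.96% and 5.38% of all genes). DESeq2 called 16 of the 38 lower and 0 higher (1.2% and 0.776% of the genes it tested), and limma on all samples called 0.

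The transcription factor Npas4, which is specific to neurons and is induced by calcium entry (ENSMUSG00000045903.9, chromosome 19, 4984353 to 5003439), had the greatest difference of the 38. Its normalised counts were 709.1, 693.3 and 1201 in WT and 102.4, 151.9 and 48.4 in knockout brains. The knockout mean was 0.116 times the WT mean and the log2 difference was -3.19 ± 0.51, with an adjusted p of 0.120 in limma and 8.99e-07 in DESeq2. The tRNA-Phe-2-1-/- brains were intermediate for Npas4, at 126.2 to 425.3, and overlapped the knockout range, whereas the tRNA-Phe-1-1-/- brains held 367.8 to 923.5.

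Arc, whose product moves to active synapses and removes glutamate receptors (chromosome 15, 74669081 to 74672570), had 7379, 4125 and 11320 normalised counts in WT and 1590, 2692 and 1096 in knockout brains. Fos, a subunit of the AP-1 transcription factor, had 940.9, 483.0 and 1501 in WT and 212.3, 373.5 and 160.0 in knockout brains. The WT brains varied widely among themselves for Fos, and WT replicate B was the lowest of them. The log2 differences were -2.07 ± 0.43 for Arc and -1.91 ± 0.49 for Fos.

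Btg2, an antiproliferative gene induced by activity, read 1176, 561.2 and 1361 in WT and 394.4, 421.5 and 306.1 in knockout brains, and the knockout values lay below those of all 9 other brains. Ier5 and Homer1 were also below the other 9. Homer1 encodes a scaffold of the postsynaptic density whose short form is induced by activity, and it averaged 16504 ± 2938 (SD, n = 3) in WT and 9072 ± 3023 in knockout brains, a log2 difference of -0.91, and -0.59 without replicate C. Ier5 averaged 2285 ± 351.4 and 1188 ± 461.1. The phosphatases Dusp1 and Dusp6, which switch off MAP kinases, had log2 differences of -1.30 ± 0.36 and -0.90 ± 0.22. Bdnf, the activity-dependent neurotrophin, had -0.64 ± 0.17, and Pcsk1, a protease that matures neuropeptides, had -0.62 ± 0.14. Members with little or no difference included Jun (0.12 ± 0.15), Nr4a2 (-0.06 ± 0.47) and Vgf (-0.16 ± 0.18).

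**Figure D4:**
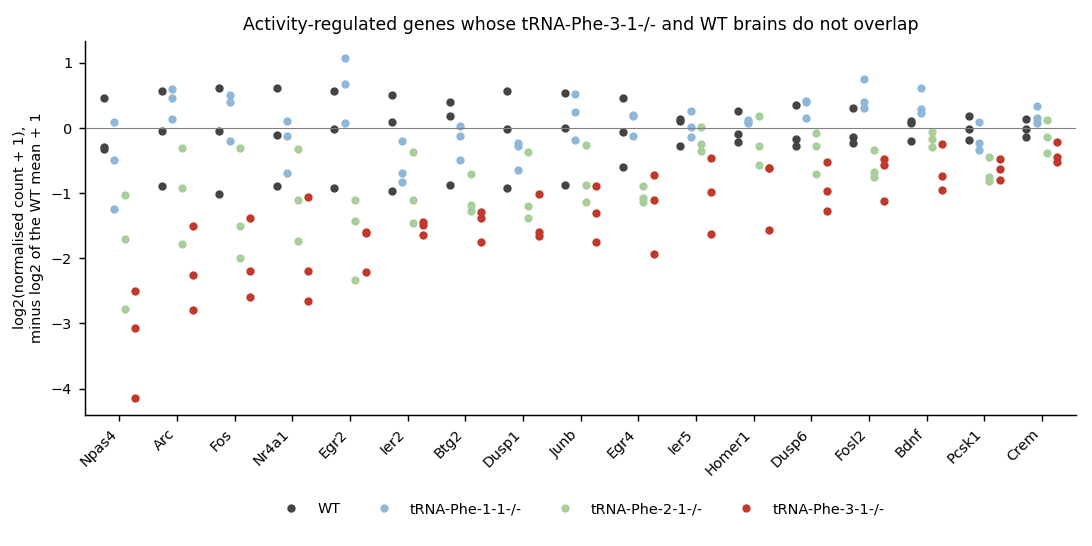
Log2 of the normalised count + 1 in each of the 12 brains relative to the WT mean (vertical axis) for the 17 activity genes whose tRNA-Phe-3-1-/- and WT brains do not overlap. Points are single brains coloured by genotype. For each gene the 3 red knockout points lie below the 3 dark grey WT points, and for Npas4 the green tRNA-Phe-2-1-/- points overlap the red ones.

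Markers of the cerebral cortex differed between the same libraries, and both lists are given side by side. The median level of the 38 genes relative to the mean of the 12 brains was -0.42, -0.24 and -1.01 in tRNA-Phe-3-1-/- replicates A, B and C and -0.02, -0.09 and 0.40 in the WT brains. The cerebral cortex markers read -0.15, 0.10 and -1.12 in the same knockout brains and 0.04, 0.36 and 0.48 in the WT brains. In replicate B the cortex level lay within the range of WT while the activity genes lay below it. Without tRNA-Phe-3-1-/- replicate C, the library with the lowest cortex level, the median was -0.49. There, 19 of the 38 genes were lower at an unadjusted p under 0.05 (4.73% of all genes) and 0 were higher (3.81%). The groups did not overlap for 17 of the 38, all lower. Lack of overlap is easier to reach with fewer brains, and its share over all genes was not counted in that setting. Without replicate B the median was -0.79, 24 genes were lower and 0 higher at that p (9.24% and 6.94% of all genes), and Npas4 and Ier5 were called by limma, with adjusted p-values of 0.0452 and 0.0468. The part of tissue composition in the levels of the activity genes was not tested. Against the 9 brains of the other genotypes the median of the 38 was -0.73, and 3 of the 38 lay below all 9 other brains, where 1.48% of all genes did. The tRNA-Phe-2-1-/- brains read -0.28, -0.42 and 0.07, so they overlapped the tRNA-Phe-3-1-/- brains.

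1 noncoding transcript outside the naming rule was chosen after its values were seen. 1700016P03Rik spans the genes of the microRNAs miR-212 and miR-132 in GRCm39 (chromosome 11, 75063301 to 75070543), which are known to be induced by neuronal activity. It had 185.6, 58.1 and 205.4 normalised counts in WT and 15.1, 10.5 and 8.9 in knockout brains, below all 9 other brains. The log2 difference was -3.43 ± 0.55, with an adjusted p of 0.120 in limma. The libraries do not measure the mature microRNAs themselves. The mature sequences from RefSeq are shown because both arms share the seed, bases 2 to 8, marked in capitals.

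mmu-miR-132-3p: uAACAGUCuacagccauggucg

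mmu-miR-212-3p: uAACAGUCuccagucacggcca

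Promoters of the activity genes were searched for the response elements through which calcium signals act. RefSeq promoters of GRCm38.p6, from 250 bases before to 50 bases after a transcription start, were found for 28 of the 38 genes. The cAMP response element TGACGTCA, which reads the same on both strands and is bound by CREB, was present in a promoter of 4 of the 28 genes (Btg2, Dusp1, Maff and Pcsk1), and in 2.03% of 27025 genes with a promoter. The CArG box, bound by serum response factor, was present for 2 of the 28 (Dusp5 and Egr2) against 1.81% of all genes. Btg2, Dusp1 and Pcsk1 were below WT without overlap, while Maff was not (0.31 ± 0.39). The promoters of Btg2 and Dusp1 are shown as examples, with the element in capitals.

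Btg2 promoter (chr1:134079106-134079405, minus strand): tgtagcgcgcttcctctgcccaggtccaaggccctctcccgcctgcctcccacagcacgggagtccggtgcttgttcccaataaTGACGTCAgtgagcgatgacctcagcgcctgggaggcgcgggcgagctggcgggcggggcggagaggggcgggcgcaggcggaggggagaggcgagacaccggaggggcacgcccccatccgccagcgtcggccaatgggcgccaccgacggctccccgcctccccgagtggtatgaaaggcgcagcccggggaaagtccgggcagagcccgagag

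Dusp1 promoter (chr17:26508423-26508722, minus strand): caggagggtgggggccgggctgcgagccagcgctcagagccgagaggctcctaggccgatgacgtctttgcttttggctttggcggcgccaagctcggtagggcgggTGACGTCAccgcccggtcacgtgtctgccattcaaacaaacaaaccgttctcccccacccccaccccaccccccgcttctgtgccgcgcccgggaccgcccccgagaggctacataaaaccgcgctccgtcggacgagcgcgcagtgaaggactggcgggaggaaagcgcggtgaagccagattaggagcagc

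Both elements lie upstream of the transcription start. A match is a description of the sequence and not evidence of binding in these brains.

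Genes of fast synaptic signalling were next examined. Of 30 genes of the presynaptic release machinery, 24 were lower in the knockout, with a median of -0.20, and 8 were lower at an unadjusted p under 0.05 (6.96% of all genes). The knockout and WT brains did not overlap for 6 of the 30 on the lower side and 2 on the higher side (8.48% and 7.93% of all genes). Besides Syt2 these included Snap25, a membrane fusion protein, which averaged 62684 ± 4740 in WT and 43458 ± 10067 in knockout brains (-0.55, and -0.36 without replicate C), and the complexin Cplx1 (-0.39 ± 0.12). The list median was -0.07 without tRNA-Phe-3-1-/- replicate C and -0.36 without tRNA-Phe-3-1-/- replicate B. It was -0.39, -0.11 and -0.12 without WT replicates A, B and C. Syt2 was at -1.26 without tRNA-Phe-3-1-/- replicate C.

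The neurofilament and axonal list had 15 of 18 members lower, with a median of -0.17 and 4 members lower without overlap (8.48% of all genes). The median was -0.11 without tRNA-Phe-3-1-/- replicate C, -0.12 without WT replicate C and -0.07 without WT replicate B. Without WT replicate A it was -0.29 and 9 members were without overlap, a setting for which the share of all genes was not counted. Nefm, the medium neurofilament subunit of large axons (chromosome 14, 68119545 to 68125004), had 2441, 3121 and 2875 normalised counts in WT and 1709, 1745 and 1583 in knockout brains. The kinesin motors Kif5a and Kif5c, which carry cargo along axons, had log2 differences of -0.36 ± 0.09 and -0.36 ± 0.10. For both, the tRNA-Phe-1-1-/- brains overlapped the tRNA-Phe-3-1-/- brains, with means of 52052 against 50341 for Kif5a and 33354 against 31440 for Kif5c.

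Ion channel genes differed in both directions. Scn1a, the sodium channel of fast-spiking interneurons (chromosome 2, 66270781 to 66440837), had 14430, 10836 and 12824 normalised counts in WT and 8550, 9390 and 9123 in knockout brains. Scn3b, which encodes a beta subunit of sodium channels, was higher in the knockout (0.50 ± 0.11). The tRNA-Phe-1-1-/- brains overlapped the tRNA-Phe-3-1-/- brains for both, at 8160 to 9618 for Scn1a and 3286 to 3935 for Scn3b. The potassium channel genes Kcna1 and Kcna2 had differences of -0.48 ± 0.14 and -0.51 ± 0.16. Of 23 sodium and calcium channel genes 3 were higher and 3 lower at an unadjusted p under 0.05, and of 21 potassium channel genes 4 were higher and 5 lower, where 5.38% of all genes were higher and 6.96% lower.

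Pvalb, the calcium buffer of fast-spiking interneurons, had 2075, 1349 and 1686 normalised counts in WT and 746.7, 658.0 and 1227 in knockout brains. Its log2 difference was -0.99 ± 0.29, with an adjusted p of 0.229 in limma. The tRNA-Phe-1-1-/- brains, at 762.6 to 1089, lay within the tRNA-Phe-3-1-/- range for Pvalb. Vip, which marks another class of interneuron, was also lower (-1.04 ± 0.41, and -0.48 without tRNA-Phe-3-1-/- replicate C), while the median of the 14 interneuron markers was 0.09 and 3 of them were higher and 3 lower at an unadjusted p under 0.05.

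Receptor genes were also split. Of 18 genes of the GABA-A and glycine receptors, 3 were higher and 5 lower at an unadjusted p under 0.05 (5.38% and 6.96% of all genes). Gabrb2, a beta subunit of the GABA-A receptor, had 8159, 8321 and 8410 normalised counts in WT and 7030, 6685 and 6684 in knockout brains, without overlap. The tRNA-Phe-1-1-/- brains, at 6079 to 7134, overlapped the tRNA-Phe-3-1-/- brains for Gabrb2. Glra2, a glycine receptor subunit, was higher, at 370.4, 425.9 and 360.1 in WT and 670.2, 544.6 and 947.9 in knockout brains. Among glutamate receptor genes, Gria1 was higher (0.35 ± 0.08) and Grin2a lower (-0.78 ± 0.22, and -0.46 without tRNA-Phe-3-1-/- replicate C), and the median of the 17 genes was 0.04.

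The machinery that makes, charges and reads tRNA-Phe was close to WT. Phenylalanyl-tRNA synthetase, which loads phenylalanine onto tRNA-Phe, has an alpha subunit encoded by Farsa and a beta subunit encoded by Farsb, and Fars2 encodes the mitochondrial enzyme. Farsa had 1056, 948.0 and 988.7 normalised counts in WT and 1047, 963.5 and 857.1 in knockout brains, with overlapping groups. The log2 differences were -0.07 ± 0.10 for Farsa, 0.09 ± 0.10 for Farsb and 0.08 ± 0.11 for Fars2. Of the 20 cytosolic synthetases, 2 were higher and 0 lower at an unadjusted p under 0.05 (5.38% and 6.96% of all genes). Their median was -0.03. Rars1, which charges arginine tRNAs, was higher without overlap (0.20 ± 0.08, and 0.11 without tRNA-Phe-3-1-/- replicate A).

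Of 15 genes of enzymes that modify tRNA-Phe, Wdr6 stood out. Wdr6 encodes the partner of the methyltransferase Ftsj1, which modifies the first base of the tRNA-Phe anticodon (ENSMUSG00000066357.6, chromosome 9, 108572311 to 108578713). Its normalised counts were 4036, 2925 and 3979 in WT and 7169, 5030 and 11210 in knockout brains, above all 9 other brains, whose highest was 4991. The knockout mean was 2.14 times the WT mean and the log2 difference was 1.03 ± 0.28, with an adjusted p of 0.217 in limma and 0.01002 in DESeq2. Without tRNA-Phe-3-1-/- replicate C the difference of Wdr6 was 0.73 and its adjusted p in DESeq2 was 0.130. Ftsj1 itself differed by -0.12 ± 0.11. Trmt5, which methylates the base next to the anticodon, was lower without overlap (-0.28 ± 0.10), and the median of the 15 genes was -0.01.

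RNA polymerase III transcribes tRNA genes. Of its 23 genes, 0 were higher and 1 was lower at an unadjusted p under 0.05 (5.38% and 6.96% of all genes). That gene was Maf1, the repressor of the polymerase, which had 1682, 1842 and 1825 normalised counts in WT and 1503, 1521 and 1345 in knockout brains, below all 9 other brains (-0.29 ± 0.08). Of 14 genes of ribosome stalling and rescue, Hbs1l was lower (-0.19 ± 0.06) and the median was -0.06. The 25 genes of Atf4, the factor of the response to amino acid shortage, and its targets had a median of 0.02, and Atf4 itself had 2831, 2708 and 2900 in WT and 2626, 2406 and 2586 in knockout brains.

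Chaperone genes had small differences, mostly on the lower side. Of 22 genes for protein folding in the endoplasmic reticulum 17 were lower, with a median of -0.13 and 4 lower at an unadjusted p under 0.05 (6.96% of all genes). Without tRNA-Phe-3-1-/- replicate B the median was -0.05, with 2 higher and 2 lower at that p (6.94% and 9.24% of all genes). Without WT replicate A it was -0.08. Hspa5, the chaperone BiP, averaged 8792 ± 887.6 in WT and 7073 ± 1171 in knockout brains, and Xbp1, a factor of the unfolded protein response, averaged 2832 ± 183.3 and 2393 ± 49.9. Of 17 cytosolic heat shock genes 14 were lower, with a median of -0.11, and Hsph1, Hspa1b and Dnajb1 were among 4 lower without overlap (8.48% of all genes). That median was -0.04 without tRNA-Phe-3-1-/- replicate B, -0.18 without tRNA-Phe-3-1-/- replicate C and -0.06 without WT replicate A. The tRNA-Phe-1-1-/- brains held more of both Hspa1b and Hsph1 than any other brain. Hspa1b, an inducible Hsp70, had 390.9, 380.5 and 452.6 in WT and 298.5, 333.4 and 202.4 in knockout brains, a log2 difference of -0.58, and -0.37 without replicate C.

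Ribosomal protein genes and the mitochondrial genome had small differences on the higher side. Of 64 cytosolic ribosomal protein genes 61 were higher, with a median of 0.08, and 12 were higher without overlap (7.93% of all genes). The median was 0.04 without tRNA-Phe-3-1-/- replicate C and 0.05 without WT replicate B. The count without overlap was 35 without WT replicate A and 25 without tRNA-Phe-3-1-/- replicate B. For these settings the share of all genes without overlap was not counted. Rps24, a protein of the small subunit, had 5218, 4758 and 5027 normalised counts in WT and 5361, 5770 and 5781 in knockout brains. All 11 mitochondrial entries were higher, with a median of 0.12, and mt-Nd3, a subunit of respiratory complex I, was higher by 0.28 ± 0.09. The share of reads in mitochondrial genes was 5.45%, 5.68% and 5.17% in the WT brains and 5.49%, 6.32% and 5.99% in the knockout brains, and its part in these differences was not tested.

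**Figure D5:**
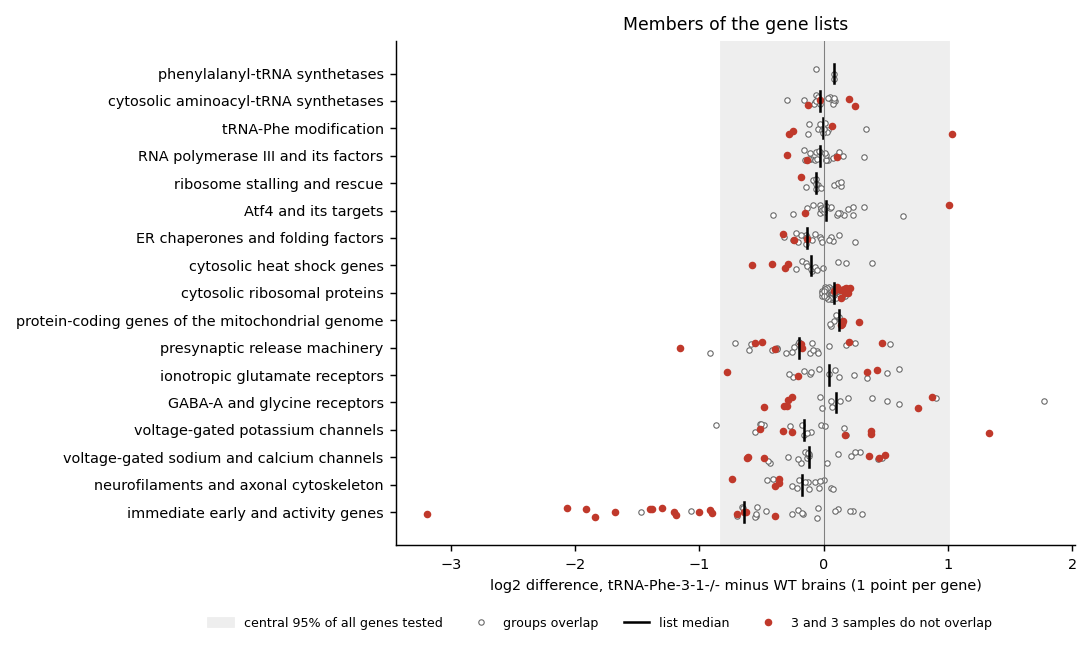
Log2 difference between tRNA-Phe-3-1-/- and WT brains (horizontal axis) of each member of 17 gene lists, with 1 point per gene and the list median as a black bar. Red points are genes whose 3 knockout and 3 WT brains do not overlap, and the grey band spans the central 95% of all genes, from -0.83 to 1.01. Members for tRNA charging and transcription cluster near 0, while the activity genes spread to -3.19.

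The 16 microglia markers had a median of 0.09 and 0 with an unadjusted p under 0.05 (12.3% of all genes). The interferon-stimulated genes had a median of -0.02. H2-T23, an MHC class I gene, was lower (549.2, 646.8 and 572.2 in WT and 398.7, 477.4 and 284.4 in knockout brains) and lay below all 9 other brains. The 14 endothelial and mural markers had a median of -0.06. Of 16 oligodendrocyte and myelin markers 15 were lower (median -0.19), and 0 were without overlap. Without tRNA-Phe-3-1-/- replicate C the median of the myelin list was -0.49 and 14 of the 16 were lower without overlap. Lack of overlap is easier to reach with 1 brain left out, and its share over all genes was not counted there. The median of the myelin list was 0.04 without replicate A and -0.07 without replicate B. tRNA-Phe-3-1-/- replicate C held the highest myelin sum of the 6 brains, 208649, and replicate A the lowest, 99122. Of 13 astrocyte markers 6 were higher and 7 lower, with a median of -0.04. The groups did not overlap for 1 on the higher side and 2 on the lower side (7.93% and 8.48% of all genes). Slc1a3 was the higher one (0.18 ± 0.08). Slc1a2, the main glutamate transporter, averaged 93560 ± 18254 in WT and 68571 ± 12825 in knockout brains. Aldh1l1 had -0.27 ± 0.08, and both Slc1a2 and Aldh1l1 were below all 9 other brains. The difference of Slc1a2 was -0.45, and -0.28 without tRNA-Phe-3-1-/- replicate C and -0.30 without WT replicate B.

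Genes next to the deleted tRNA gene were close to WT. Within 1 Mb on either side, 33 genes were tested, of which many encode histones. Their median log2 difference was 0.05, 2 were higher and 0 lower at an unadjusted p under 0.05 (5.38% and 6.96% of all genes), and 4 were higher and 1 lower without overlap (7.93% and 8.48%). The closest tested genes were H2ac24 on one side, 49.4 kb away (0.07 ± 0.29), and Zfp184 on the other, 62.1 kb away (0.11 ± 0.27). The 2 with a low p, named after their values were seen, were Zkscan8 (0.15 ± 0.07) and the vomeronasal receptor gene Vmn1r206. Vmn1r206 had a mean of 1.0 normalised counts in WT and 15.7 in knockout brains. Its means were also above WT in the tRNA-Phe-1-1-/- brains (21.1) and the tRNA-Phe-2-1-/- brains (11.7). Histone messages mostly lack a poly(A) tail, and near-identical copies share reads, so the values of single histone genes are uncertain.

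Regional markers had large differences that varied between libraries. Of 12 olfactory bulb markers all were higher in the knockout, with a median of 2.09 and 6 without overlap (7.93% of all genes). The median was 1.23 without replicate B. Th, the enzyme that makes dopamine precursors in the olfactory bulb and midbrain, had 84.7, 60.2 and 27.1 normalised counts in WT and 126.1, 886.7 and 381.1 in knockout brains. Eomes, a factor of olfactory bulb output neurons, had 5.3 to 6.0 in WT and 23.7, 404.1 and 56.3 in knockout brains. The 12 hypothalamus markers that passed the filter, of 15, had a median of 1.67, and 0.81 without replicate C. Trh, the hypothalamic releasing hormone, had 68.4, 47.6 and 274.3 in WT and 328.7, 367.4 and 683.3 in knockout brains. Of 15 striatum markers 14 were higher and 9 were above WT without overlap (7.93% of all genes), with a median of 1.00, and 0.49 without WT replicate C. Of 15 cerebral cortex markers 14 were lower, 7 at an unadjusted p under 0.05 (6.96% of all genes), with a median of -0.69. Leaving out tRNA-Phe-3-1-/- replicate C brought that median to -0.33. Lamp5, a marker of upper layers, had 3204, 3569 and 4006 in WT and 1808, 2145 and 765.3 in knockout brains, a log2 difference of -1.32, and -0.86 without replicate C. The part of dissection and that of genotype in these markers cannot be told apart.

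The tRNA-Phe-3-1-/- brains were finally compared with the other 3 genotypes together, a comparison that shares the knockout and WT brains with the one above. limma called 0 of 19228 genes (0%), with 1222 genes higher (6.36%) and 1749 lower (9.1%) at an unadjusted p under 0.05 and a lowest adjusted p of 0.0749. DESeq2 called 633, with 263 higher and 370 lower (1.37% and 1.93%). The DESeq2 count was 151 when tRNA-Phe-3-1-/- replicate C was left out, and 1293 when replicate B was. There were 206 genes above all 9 other brains (1.07%) and 285 below (1.48%). Fstl5 differed from the other 3 genotypes by 0.78 ± 0.11 and Smoc1 by 0.96 ± 0.14, both with an adjusted p of 0.0749 in limma. Luzp1 differed by -0.44 ± 0.08 and Pou3f3 by -0.45 ± 0.08, with an adjusted p of 0.0771 each.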

How the data were processed

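Brain RNA of 4 genotypes, 3 mice each, was sequenced after TruSeq library preparation on an Illumina NovaSeq instrument. Reads were trimmed (Trim Galore) and mapped to GRCm38.p6 with the GENCODE vM24 annotation (STAR). The authors then quantified genes with Salmon and divided the estimated counts by DESeq2 size factors within each tissue. The deposited values are these normalised counts, a scaled signal per gene. All values in the 12 brain columns (100%) were whole multiples of 1 step per sample, so whole reads were recovered, within a tolerance of 0.01, for the count tests. Brain libraries held 30365760 to 46225360 reads.

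log2(normalised count + 1) of 19228 genes with a mean of at least 10 over the 12 brains was fitted with limma 3.58.1 (R 4.3.3, variance trend, Benjamini-Hochberg adjustment, threshold 0.05). Fold changes are on this scale, which understates those of low genes. edgeR 4.0.16 and DESeq2 1.42.0 were run on recovered reads as alternatives. Errors in the text are standard errors of log2 differences or SDs of 3 brains. Replicates of a genotype differed by more than sampling noise (chi-square per degree of freedom 31.3 to 71.5). In tests on simulated brain data limma recovered 96 of 100 genes changed 4-fold and 75 of 100 changed 2-fold. The spread of the simulated replicates was set beforehand and not taken from these brains. The simulation also held no differences in regional markers between replicates, so its rates do not give the power of the real comparison.

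Named genes had a mean of at least 50, an unadjusted p under 0.05 and no overlap between the 3 knockout and 3 WT brains: 6 protein-coding genes per direction with the lowest p, 6 with the largest difference, and 2 genes of other types. The 3 members of each gene list with the lowest p, Farsa, Farsb, Fars2 and the tested genes nearest the tRNA gene were added. Other activity genes, Ftsj1 and the genes in the closing section were named after their values were seen. The members and the 41 gene lists were chosen with earlier results of these data known. Regional marker lists overlap in some genes. The tables with the authors' own comparisons (fold changes and p-values) and the liver table were not used here. P-values measure the spread between these 3 mice per genotype. Some genes that the naming rule picks are not reported here.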

Additional observations from a re-analysis of the deposited data

How the results depend on the processing

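With limma, the count of genes called between tRNA-Phe-3-1-/- and WT brains was 0 with other pseudocounts and fits, except for 1 gene (Cdh16) with no filter on low values, and 0 to 75 when 1 brain was left out. The 75 were called without tRNA-Phe-3-1-/- replicate B, and 1 gene, Pwwp4b, without WT replicate C. DESeq2 on recovered reads called 372. It called 279, 159 and 104 without WT replicates A, B and C, and 256, 949 and 137 without tRNA-Phe-3-1-/- replicates A, B and C. Leaving brains out of DESeq2 was chosen after seeing the data. Against the other 3 genotypes the count was 1 with a pseudocount of 0.1, 1 with no variance trend, 1 with edgeR, 633 with DESeq2, and 0 to 145 without 1 brain. In that comparison DESeq2 called 540, 415 and 420 without WT replicates A, B and C, and 491, 1293 and 151 without tRNA-Phe-3-1-/- replicates A, B and C. The cause of the difference between tools was not tested. The replicate letters did not pair the brains (correlations of -0.08, 0.30 and 0.01 for A, B and C), and a replicate block called 0 genes in either comparison. Near 0, the log2 difference changed sign without 1 brain for Farsa (-0.13 to 0.012, above 0 without tRNA-Phe-3-1-/- replicate C), Zfp184 (-0.22 to 0.34, below 0 without WT replicate B) and H2ac24 (-0.13 to 0.25, below 0 without WT replicate A or tRNA-Phe-3-1-/- replicate B).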

Other observations

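Transcripts of other organs were present in some brain libraries. Alb, which encodes the albumin of liver, had 625.3, 227.2 and 140.0 normalised counts in the WT brains and 3.2, 9.6 and 36.5 in the tRNA-Phe-3-1-/- brains, while the other 6 brains spanned 5.2 to 877.2. Serpina3k, another liver gene, had 189.9, 70.8 and 37.2 in WT and 1.1, 0.9 and 3.9 in knockout brains. Myh6, the heart myosin, had 480.7 in WT replicate A and 28.5 and 18.1 in WT replicates B and C, and 0 in all 3 tRNA-Phe-3-1-/- brains.

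Gh, the growth hormone gene of the pituitary, had 0.9, 1.1 and 401.8 in WT and 57.1, 313.3 and 115.5 in knockout brains.

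Some annotated copies differed in an all-or-none manner. Gm2446, a pseudogene on chromosome 12, had 166.8, 127.9 and 160.3 normalised counts in WT and 0, 70.7 and 0 in tRNA-Phe-3-1-/- replicates A, B and C. Gm2436, a pseudogene nearby on the same chromosome, was at 0 in WT and in the other 6 brains and had 167.0, 0 and 118.5 in the same knockout brains. Reads of near-identical copies can be assigned to either, so these values are uncertain. Gm20458, which overlaps Dbndd2 on the same strand, had 20.5, 192.4 and 108.4 in WT and 0 in all 3 knockout brains.

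Vmn2r1, a vomeronasal receptor gene, was the gene called against the other 3 genotypes by edgeR. It had 25.7, 25.4 and 27.1 normalised counts in WT, 33.4, 62.0 and 41.5 in tRNA-Phe-3-1-/- brains, and 5.1 to 10.3 in the 6 brains of the other knockout lines. Its level in WT was thus closer to that in tRNA-Phe-3-1-/- than to that of the other lines.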
